A study of Mus musculus with 12 samples.

Results

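This account covers 37 long transcripts of neurons that are known to be bound by FMRP in brain, the RNA-binding protein encoded by Fmr1. They were taken by name from a set of FMRP-bound transcripts, leaving out those that belong with synapse, ion channel and autism genes. Earlier results of these data were known when they were chosen. All 37 were found among the 57010 genes of the count table, and all 37 were among the 19166 genes with enough counts to test.

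FMRP binds mRNAs along their coding sequence and is best known for holding back their translation, and its absence causes fragile X syndrome in people. The mRNAs it binds in mouse brain are enriched for very long messages of neurons, coding for cytoskeletal scaffolds, motor proteins, giant ubiquitin ligases, signalling enzymes and chromatin regulators. RNA sequencing of whole tissue reads the level of these mRNAs and not their translation.

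RNA was sequenced from mouse cerebellum, and the study's design names crus 1, part of the cerebellar hemisphere, as the region. There were 3 groups of 4 libraries: Fmr1 knockout mice injected intraperitoneally with poly(I:C), a synthetic stand-in for the double-stranded RNA of viruses, Fmr1 knockout mice given saline, and FVB mice given saline, FVB being the inbred strain set against the knockout. In the sample titles the saline knockout is called sham. Both treatments of the knockout share the Fmr1 allele, and FVB mice given poly(I:C) are not among the groups analysed here, so whether a response to poly(I:C) depends on Fmr1 could not be tested. Not given in the sources used here are the allele's structure, the dose, the time after injection and the age of the mice. The knockout line and FVB may differ at loci other than Fmr1, and such differences and the loss of Fmr1 cannot be told apart. The labels do not say that each library came from a separate animal, and the p-values reflect only the spread among these libraries. In whole tissue, fewer cells of a type and less RNA per cell cannot be told apart.

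Total counts ran from 39.4 to 56.4 M per library in the poly(I:C) knockout, from 38.7 to 50.2 M per library in the saline knockout and from 35.2 to 48.7 M per library in FVB. Fmr1, the targeted gene, was at 33.9 to 36.0 counts-per-million (CPM) in the poly(I:C) knockout, 27.9 to 36.7 CPM in saline knockout libraries and 85.5 to 108 CPM in FVB, so FVB was above the knockout in every library, with some transcript remaining. Of 10 interferon-stimulated genes, 10 rose in the poly(I:C) knockout over the saline knockout (median log2 fold change 3.73). Markers of granule and Purkinje cells were abundant throughout. The summed level of 12 granule cell markers was 8765 to 9358 CPM in the poly(I:C) knockout, 8866 to 9631 CPM in saline knockout libraries and 8438 to 9623 CPM in FVB. That of 12 Purkinje cell markers was 7757 to 8918, 8245 to 10092 and 8553 to 9685 CPM in the same groups, with overlapping ranges. What part differences in cell makeup have in the results was not tested. Libraries 2 and 3 of the poly(I:C) knockout and library 2 of the saline knockout carried 2167, 2631 and 4156 CPM of Ttr, a gene of the choroid plexus, against 1.63 to 65.3 CPM in the other 9. Library 4 of the saline knockout also stood apart, because it was the lowest of all 12 libraries for 28 of the 37 genes, and results that rest on it are given below with and without it.

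Differences between the groups were small among the 37 genes. Saline knockout over FVB called 2 of them at a Benjamini-Hochberg adjusted p under 0.05 by edgeR's quasi-likelihood test, both lower in the knockout: Adcy5, an adenylyl cyclase that makes the second messenger cyclic AMP, and Adgrb2, an adhesion G protein-coupled receptor of neurons. These 2 are 5.41% of the 37 genes, where 1.53% of all tested genes were called. Poly(I:C) knockout over FVB called the same 2 genes, again 5.41%, where 7.05% of all tested genes were called. Poly(I:C) over saline within the knockout called 0 of the 37 by edgeR, 1 by DESeq2 and 0 by limma-voom. Of all tested genes edgeR called 2.87% there, and DESeq2 and limma-voom called 986 and 572 of the 19166.

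Weaker criteria gave shares near those of all genes. At an unadjusted p under 0.05 stood 6 of the 37 genes (16.2%) for poly(I:C) over saline knockout, against 15.5% of all tested genes. The same count, 6 (16.2%), stood there for saline knockout over FVB, against 12.0%, and 7 (18.9%) for poly(I:C) knockout over FVB, against 21.3%. Groups of 4 and 4 libraries that did not overlap were found for 2 of the 37 (5.41%) for poly(I:C) over saline knockout, against 9.75% of all tested genes. They were found for 2 (5.41%) for saline knockout over FVB, against 7.02%, and for 6 (16.2%) for poly(I:C) knockout over FVB, against 14.2%.

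These transcripts are abundant and their fold changes had small errors. Mean log2 CPM ran from 5.55 to 10.5 with a median of 8.09, against a median of 3.69 over all tested genes, and the median standard error (SE) of the log2 fold change for poly(I:C) over saline knockout was 0.07, against 0.127 over all tested genes. For the genes that were not called, every 95% interval lay within 0.5 of zero on the log2 scale: 37 of 37 for poly(I:C) over saline knockout, 35 of 35 for saline knockout over FVB and 35 of 35 for poly(I:C) knockout over FVB. The farthest bound was 0.45 for Lrp1, 0.39 for Map1a and 0.40 for Nav2 in those comparisons. The limit of 0.5 does not set called genes apart. The intervals of Adgrb2, called against FVB, also lay within it, from −0.40 to −0.13 for the saline knockout and from −0.44 to −0.18 for the poly(I:C) knockout.

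The median log2 fold change of the 37 genes was 0.03 for poly(I:C) over saline knockout, with 26 above and 11 below zero, running from −0.24 (Nav2) to 0.24 (Lrp1). It was −0.09 for saline knockout over FVB, from −0.36 (Adcy5) to 0.19 (Nav1), with 7 above and 30 below zero, and −0.02 for poly(I:C) knockout over FVB, from −0.42 (Adcy5) to 0.22 (Kmt2a), with 15 above and 22 below zero. Over all tested genes the medians were −0.0017, 0.0033 and 0.0010, with 49.6%, 50.9% and 50.2% of genes above zero. The first 2 comparisons share the saline knockout libraries, which enter them with opposite signs. Without library 4 of the saline knockout the medians were −0.01 for poly(I:C) over saline knockout, with 20 of 37 genes below zero, and −0.03 for saline knockout over FVB, with 23 of 37 below zero.

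**Figure D1:**
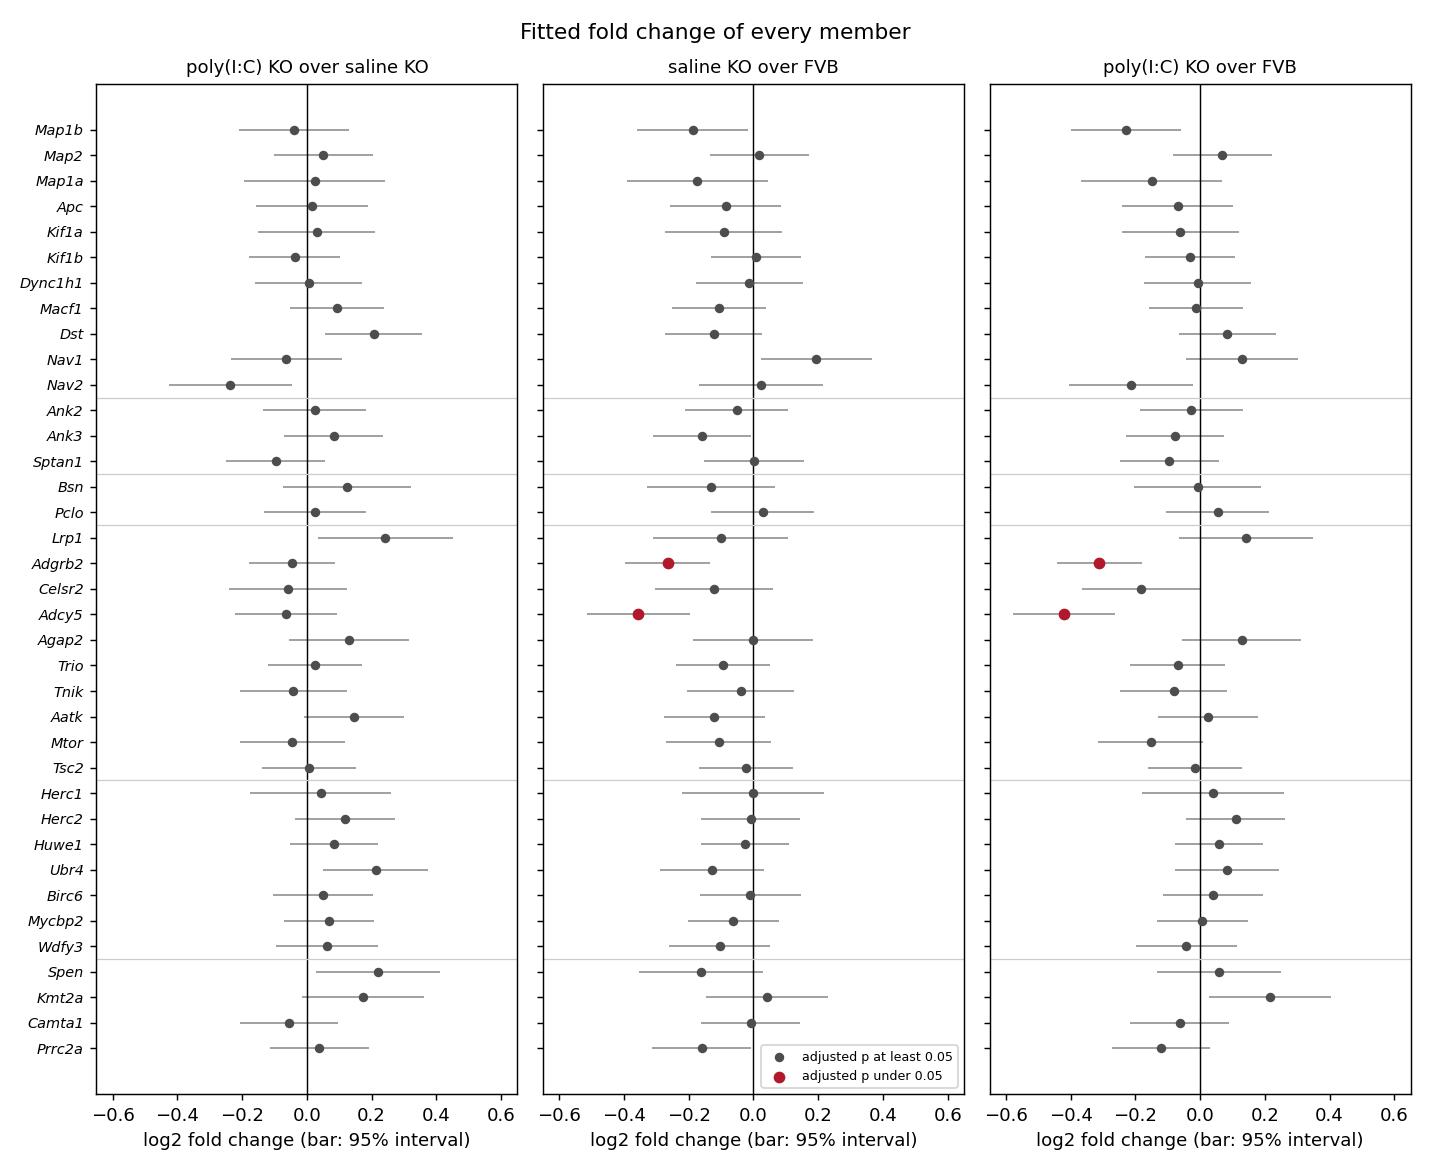
Log2 fold changes (x axis) of the 37 genes (rows, grouped by role) for poly(I:C) knockout over saline knockout, saline knockout over FVB and poly(I:C) knockout over FVB, with 95% intervals as bars. Red points mark genes with an adjusted p under 0.05 by edgeR, which are Adcy5 and Adgrb2 in the comparisons with FVB. The intervals of the genes not called, and those of Adgrb2, stay within 0.5 of zero.

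Receptors and signalling enzymes made up 10 of the 37 genes and held both calls. For saline knockout over FVB all 10 had a fold change below zero (median −0.10), 2 of them called (1.53% over all tested genes). All 10 stayed below zero with RLE or upper quartile scaling, DESeq2, limma-voom and other count filters, 8 did without library 4 of the saline knockout, and 7 did with an offset for transcript length. For poly(I:C) knockout over FVB 7 were below zero, 2 of them called (7.05% over all tested genes). For poly(I:C) over saline knockout 5 were below and 5 above zero, with none called.

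Adcy5 was at 59.3, 51.7, 53.5 and 53.5 CPM in poly(I:C) knockout libraries 1 to 4, at 59.8, 57.4, 60.9 and 50.0 CPM in saline knockout libraries 1 to 4, and at 73.4, 75.5, 73.7 and 69.1 CPM in FVB libraries 1 to 4. All 8 knockout libraries lay below all 4 FVB libraries, while the knockout groups overlapped each other. Means were 54.5 ± 3.33, 57.0 ± 4.89 and 72.9 ± 2.71 CPM (SD, n = 4 each). The log2 fold change was −0.36 (SE 0.0700, adjusted p = 0.0117 by edgeR) for saline knockout over FVB, a level 0.782 times that of FVB. It was −0.42 (SE 0.0700, adjusted p = 0.000776 by edgeR) for poly(I:C) knockout over FVB and −0.06 (SE 0.0700, adjusted p = 0.724 by edgeR) for poly(I:C) over saline knockout. Both calls against FVB were made under all 26 alternatives, with saline knockout over FVB between −0.39 and −0.30. The smallest of these, −0.30, came without library 4 of the saline knockout (adjusted p = 0.0280 by edgeR), the library lowest in Adcy5.

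Adgrb2 was at 99.6, 96.4, 98.5 and 96.3 CPM in poly(I:C) knockout libraries 1 to 4, at 97.4, 96.6, 109 and 101 CPM in saline knockout libraries 1 to 4, and at 112, 122, 123 and 128 CPM in FVB libraries 1 to 4. Again the 8 knockout libraries were lower than all 4 of FVB, by the least between saline knockout 3 and FVB 1. Means were 97.7 ± 1.62, 101 ± 5.53 and 121 ± 6.44 CPM (SD, n = 4 each). The log2 fold change was −0.27 (SE 0.0583, adjusted p = 0.0251 by edgeR) for saline knockout over FVB and −0.31 (SE 0.0583, adjusted p = 0.00236 by edgeR) for poly(I:C) knockout over FVB. Within the knockout it was −0.05 (SE 0.0583, adjusted p = 0.774 by edgeR). The call for saline knockout over FVB was less secure than that of Adcy5. It was lost without saline knockout 1 or 2 (adjusted p = 0.0749 and 0.0987 by edgeR), without FVB 2, 3 or 4 (0.0554, 0.0821 and 0.0964) and without the 3 libraries high in Ttr (0.146). It was also lost when only those 2 groups were fitted (0.0532) and with 1 surrogate variable (0.0511), while the fold change stayed between −0.30 and −0.24 throughout. The call for poly(I:C) knockout over FVB was lost only when the 3 libraries high in Ttr were left out (edgeR, adjusted p = 0.0588).

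**Figure D2:**
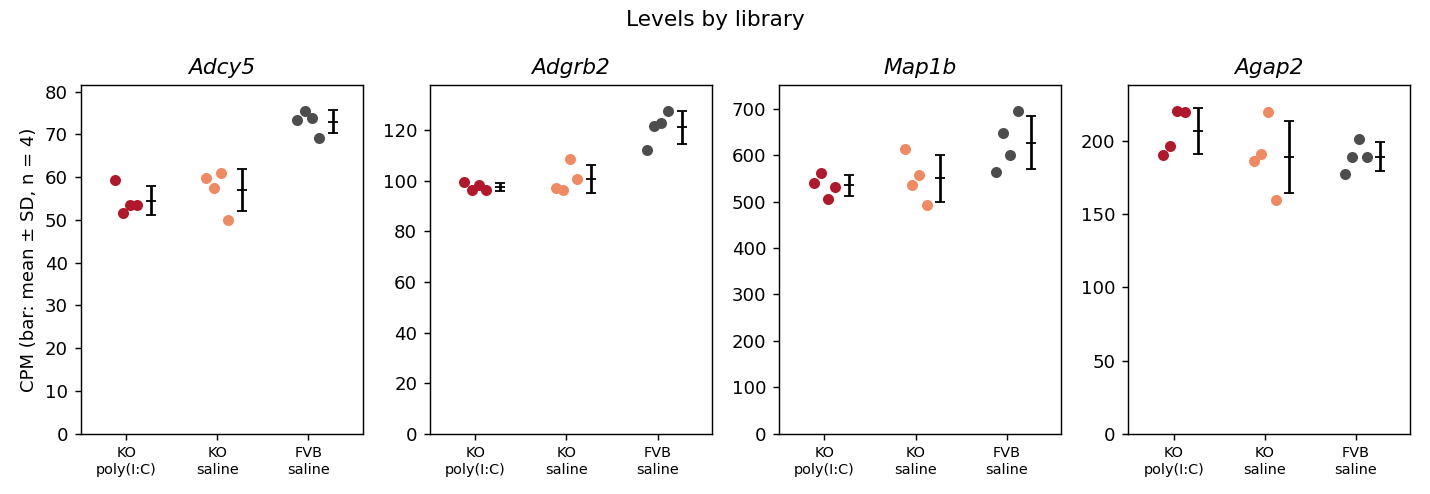
CPM (y axis, from 0) of Adcy5, Adgrb2, Map1b and Agap2 in each library, with the mean ± SD of 4 libraries beside the points. Every knockout library is below every FVB library for Adcy5 (means 54.5, 57.0 and 72.9 CPM) and Adgrb2 (97.7, 101 and 121 CPM), the saline knockout and FVB overlap for Map1b, and all groups overlap for Agap2.

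The other 8 genes of this role were not called in any comparison. Lrp1, a large endocytic receptor for lipoproteins and other ligands, had the largest positive fold change of the 37 for poly(I:C) over saline knockout. It was at 506, 527, 659 and 575 CPM in the poly(I:C) knockout, 520, 460, 530 and 405 CPM in the saline knockout and at 489, 524, 561 and 481 CPM in FVB. Libraries of all groups overlapped, and the poly(I:C) and saline knockout differed by 0.24 (SE 0.0921, adjusted p = 0.196 by edgeR) on the log2 scale, or 0.17 without saline knockout 4 and 0.16 without the 3 libraries high in Ttr. Celsr2, a cadherin of planar cell polarity, averaged 119 ± 3.82 CPM in the poly(I:C) knockout and 135 ± 4.71 CPM in FVB (SD, n = 4 each). All 4 poly(I:C) knockout libraries lay below all 4 FVB libraries, with a log2 fold change of −0.18 (SE 0.0805, adjusted p = 0.196 by edgeR). Mtor, the kinase that drives protein synthesis and growth, differed by −0.15 (adjusted p = 0.223) and Tsc2, which with Tsc1 restrains it, by −0.02 (adjusted p = 0.916 by edgeR) for poly(I:C) knockout over FVB. For Agap2, a GTPase and Arf regulator, Trio, a guanine nucleotide exchange factor, Tnik, a kinase of Wnt signalling, and Aatk, a membrane-bound kinase of neurons, fold changes lay between −0.12 and 0.15 over the 3 comparisons.

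Because FMRP's arginine-glycine-rich domain can bind G-rich RNA that folds into G-quadruplexes, coding sequences of the 37 genes were searched for such a pattern. The pattern was 4 runs of GG separated by gaps of 1 to 7 bases (GG, 1 to 7 N, GG, 1 to 7 N, GG, 1 to 7 N, GG), on the sense strand only, with overlapping starts each counted. At least 1 match was found in all 37 genes and in 89.0% of 14754 tested coding sequences, so its presence sets them apart little, and matches have not been shown to fold. Their density was 4.84 starts per kb in the median gene of the 37 and 4.60 per kb in the median tested coding sequence. The 2 called genes had the highest densities of the 37, with 15.4 starts per kb in Adgrb2 and 14.8 per kb in Adcy5. Next came Agap2 with 14.3 per kb and Prrc2a, an RNA-binding protein gene, with 12.7 per kb. Map1b, a classical FMRP target coding for a microtubule-associated protein, had 2.71 per kb and Apc the fewest, 1.41 per kb. The densest 30-base windows of 5 of these genes are printed 5′ to 3′ on the sense strand, in DNA letters read from GENCODE M21 transcripts on GRCm38, with runs of GG or longer in capitals. They show the called genes beside the next densest genes, which were not called, and the sparser Map1b. A window's richness did not follow density over the whole coding sequence. Bases in such runs numbered 18 in the windows of Adgrb2, Adcy5, Agap2 and Prrc2a and 14 in that of Map1b. They numbered 21 in those of Kif1a, Kmt2a and Birc6, which were not called and are not printed. Birc6 had only 2.12 starts per kb.
Adgrb2: GGccagaGGaGGaGGaGGaGGaGGcGGcGG
Adcy5: GGcGGcagcGGcGGGGcgcGGctGGaGGGG
Agap2: GGGGGGaGGGGcgaGGaGGtctGGccctGG
Prrc2a: tcGGGGGacctatGGGGGccGGGGtcGGGG
Map1b: aGGaGGctgaGGaaccGGaagaGGacGGGG
The windows lie in coding exons: Adgrb2 in exon 1 at chr4:129992412-129992441 (plus strand), Adcy5 in exon 1 at chr16:35156448-35156477 (plus), Agap2 in exon 5 at chr10:127083531-127083560 (plus), Prrc2a in exon 16 at chr17:35156536-35156565 (minus) and Map1b in exon 5 at chr13:99433346-99433375 (minus).

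Agap2, the densest of the genes that were not called, averaged 189 ± 24.6 CPM in saline knockout libraries and 189 ± 9.88 CPM in FVB (SD, n = 4 each), a log2 fold change of −0.0020 (SE 0.0816, adjusted p = 0.996 by edgeR). Prrc2a differed by −0.16 (SE 0.0671, adjusted p = 0.324 by edgeR) and Map1b, of much lower density, by −0.19 (SE 0.0752, adjusted p = 0.294 by edgeR). Across the 37 genes the log2 fold change of saline knockout over FVB had a Spearman rank correlation of −0.32 with G-run density and −0.34 with GC content. Across 14754 tested coding sequences the same values were −0.02 and 0.0033. These describe genes measured in the same 8 libraries, and genes are not independent replicates. Tetramers reported in FMRP-bound RNA were no denser in the 37 genes. TGGA or AGGA occurred 16.0 times per kb in the median gene and 16.3 times in the median tested coding sequence, and ACTG or ACTT 7.63 and 8.30 times, on the sense strand. Nearly every coding sequence held them (99.97% and 99.4%).

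Microtubule-associated proteins, motors and cytoskeletal linkers were the largest role, with 11 genes. By edgeR 0 of them were called in each comparison, with 2 of 11 at an unadjusted p under 0.05 each time. DESeq2 called 1 for poly(I:C) over saline knockout (Dst) and 1 for poly(I:C) knockout over FVB (Map1b), and limma-voom called 0. Over the 19166 tested genes DESeq2 called 986 and 1935 in those comparisons. Map1b, which binds and stabilises microtubules in growing axons, came nearest. It was at 540, 561, 505 and 532 CPM in poly(I:C) knockout libraries 1 to 4, at 614, 536, 557 and 494 CPM in saline knockout libraries, and at 564, 648, 599 and 696 CPM in FVB libraries. All 4 poly(I:C) libraries lay below all 4 FVB libraries, while the saline knockout overlapped both. The poly(I:C) knockout over FVB difference was −0.23 (SE 0.0752, adjusted p = 0.0757 by edgeR) on the log2 scale and passed by DESeq2 (0.0451) and without FVB 1 (0.0471), and it was −0.17 (adjusted p = 0.225 by edgeR) without FVB 4. Map1b is given here because of its known link to FMRP and was picked after its values were seen.

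Map1a, the relative of Map1b in mature neurons, and Kif1a, a kinesin that carries synaptic vesicle precursors along axons, were among the 3 genes with the highest level per kb of transcript. Kif1a reached 90.4 CPM per kb and Map1a 58.6 CPM per kb over all libraries, against a median of 13.8 CPM per kb for the 37 genes. Kif1a was at 840, 828, 822 and 859 CPM in the poly(I:C) knockout, 936, 780, 886 and 677 CPM in the saline knockout and at 845, 919, 866 and 865 CPM in FVB. Map1a was at 703, 684, 646 and 731 CPM in the poly(I:C) knockout, 748, 666, 780 and 525 CPM in the saline knockout and at 708, 829, 744 and 786 CPM in FVB. In both genes saline knockout 4 was the lowest of all 12 libraries, and the groups overlapped. For saline knockout over FVB Map1a differed by −0.17 (SE 0.0964, adjusted p = 0.525 by edgeR) and Kif1a by −0.09 (SE 0.0798, adjusted p = 0.726 by edgeR).

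The neuron navigators Nav1 and Nav2, which bind growing microtubule ends, had the lowest levels per kb, 2.70 and 1.65 CPM per kb. Nav1 was at 50.2, 45.0, 45.7 and 48.5 CPM in the poly(I:C) knockout, 56.1, 50.8, 47.4 and 43.7 CPM in the saline knockout and at 43.0, 44.7, 40.5 and 44.9 CPM in FVB. All 4 poly(I:C) knockout libraries lay above all 4 FVB libraries, the closest pair being 45.0 and 44.9 CPM (log2 difference 0.13, SE 0.0761, adjusted p = 0.345 by edgeR). The saline knockout overlapped FVB, with the largest positive fold change of the 37 genes in that comparison (0.19, SE 0.0762, adjusted p = 0.283 by edgeR). Nav2 was at 42.5, 47.6, 52.0 and 49.0 CPM in the poly(I:C) knockout, 57.2, 57.6, 52.1 and 58.0 CPM in the saline knockout and at 53.0, 50.2, 65.8 and 52.2 CPM in FVB. Every poly(I:C) library lay below every saline knockout library, the closest pair being 52.0 and 52.1 CPM. The difference of −0.24 (SE 0.0845) on the log2 scale missed the threshold (adjusted p = 0.161 by edgeR) and passed with an offset for transcript length (−0.31, adjusted p = 0.0296), an alternative chosen after seeing the data.

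Dst, a spectraplakin that links actin, microtubules and intermediate filaments and the longest of the 37 transcripts at 41.2 kb, was the other gene without overlap between the knockout groups, and its values were seen before it was picked for printing. It was at 403, 409, 451 and 400 CPM in the poly(I:C) knockout, 398, 363, 350 and 331 CPM in the saline knockout and at 382, 372, 407 and 408 CPM in FVB. The poly(I:C) libraries lay just above the saline ones and overlapped FVB. Poly(I:C) over saline knockout was 0.21 (SE 0.0661, adjusted p = 0.111 by edgeR, and 0.0487 by DESeq2) on the log2 scale, and 0.13 (adjusted p = 0.273) with the length offset. The remaining genes of this role were Map2, a protein of dendritic microtubules, Apc, a Wnt pathway suppressor that binds microtubule ends, Kif1b, a kinesin of mitochondria and vesicle precursors, Dync1h1, the dynein heavy chain, and Macf1, another spectraplakin. Their fold changes lay between −0.11 and 0.09 over the 3 comparisons. Of 17 other tested microtubule proteins and motors, 0 were called for poly(I:C) over saline knockout and 0 for saline knockout over FVB by edgeR, DESeq2 or limma-voom, with 1 and 2 at an unadjusted p under 0.05 by edgeR. For poly(I:C) knockout over FVB 1 was called (7.05% over all tested genes), the kinesin Kif21b, which fell (−0.47, SE 0.103, adjusted p = 0.00827 by edgeR).

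The ankyrin and spectrin membrane skeleton, which lines the axon and anchors channels at its initial segment, gave 3 genes and none was called by edgeR, DESeq2 or limma-voom (Ank3 alone reached an unadjusted p under 0.05, for saline knockout over FVB). Sptan1, the alpha-II spectrin chain, had the highest level per kb of all 37 genes, 105.5 CPM per kb. It was at 1377, 1299, 1335 and 1382 CPM in the poly(I:C) knockout, 1585, 1393, 1523 and 1265 CPM in the saline knockout and at 1434, 1496, 1402 and 1428 CPM in FVB. All 4 poly(I:C) knockout libraries were below all 4 FVB libraries, by a log2 difference of −0.09 (SE 0.0680, adjusted p = 0.456 by edgeR), and the saline knockout spanned both. Ank2 (ankyrin-B) and Ank3 (ankyrin-G, the organiser of the initial segment) stayed between −0.16 and 0.08 in every comparison. Of 12 other tested genes of this skeleton, poly(I:C) over saline knockout called 3 by edgeR (2.87% over all tested genes), 3 by DESeq2 and 2 by limma-voom. Sptbn4, the beta-IV spectrin of initial segments and nodes, rose (0.35, SE 0.0637, adjusted p = 0.00251 by edgeR), and Add3, an adducin, and Epb41l2, a band 4.1 protein, fell (−0.22 and −0.33, adjusted p = 0.0357 and 0.0456 by edgeR). Saline knockout over FVB called 0 of the 12 (2 at an unadjusted p under 0.05, 1 by DESeq2 and 0 by limma-voom), where edgeR called 1.53% of all tested genes. Poly(I:C) knockout over FVB called 1 by edgeR (7.05% over all tested genes), 3 by DESeq2 and 1 by limma-voom. The edgeR call was Add3, which fell (−0.22, SE 0.0555, adjusted p = 0.0221 by edgeR).

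Bsn and Pclo encode bassoon and piccolo, giant scaffolds of the presynaptic active zone, and neither was called by edgeR, DESeq2 or limma-voom or reached an unadjusted p under 0.05. Bsn averaged 362 ± 44.7 CPM in the poly(I:C) knockout, 332 ± 32.1 CPM in saline knockout libraries and 364 ± 25.7 CPM in FVB (SD, n = 4 each). Pclo averaged 266 ± 7.01, 262 ± 28.6 and 257 ± 12.4 CPM in the same groups. Their fold changes lay between −0.13 and 0.12, and of 9 other tested active zone genes edgeR called 0 in each comparison. At an unadjusted p under 0.05 stood 1 for poly(I:C) over saline knockout, 1 for saline knockout over FVB and 2 for poly(I:C) knockout over FVB. In the last DESeq2 called 1, where it called 1935 of the 19166 tested genes.

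Large ubiquitin ligases, with the autophagy scaffold Wdfy3, gave 7 genes: Herc1, Herc2, Huwe1, Ubr4, Birc6, which also inhibits apoptosis, Mycbp2, a ligase of axons and synapses, and Wdfy3, which delivers protein aggregates to autophagosomes. None was called by edgeR, DESeq2 or limma-voom, and only Ubr4 reached an unadjusted p under 0.05 (poly(I:C) over saline knockout). All 7 had a fold change above zero for poly(I:C) over saline knockout (median 0.07) and all 7 below zero for saline knockout over FVB (median −0.02). The saline knockout libraries enter both. Without saline knockout 4, 6 of 7 were above zero for poly(I:C) over saline knockout and 4 of 7 below zero for saline knockout over FVB. With the length offset, 5 of 7 were above zero and 3 of 7 below zero in those comparisons. Ubr4, a ligase of the N-degron pathway, had the largest difference of this role, and its values were seen before it was chosen for printing. It was at 211, 226, 237 and 225 CPM in the poly(I:C) knockout, 222, 188, 195 and 172 CPM in the saline knockout and at 201, 213, 227 and 208 CPM in FVB. Poly(I:C) over saline knockout was 0.21 (SE 0.0711, adjusted p = 0.131 by edgeR), and it passed only without saline knockout 1, the library of its group highest in Ubr4 (0.28, adjusted p = 0.0325).

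Among 13 other tested ubiquitin ligases of these families, 1 was called for poly(I:C) over saline knockout (2.87% over all tested genes). For poly(I:C) knockout over FVB 1 was called too (7.05% over all tested genes), and both times it was Herc6, which rose. Herc6, the ligase that attaches ISG15 in mouse, was at 9.30, 17.7, 16.9 and 7.85 CPM in the poly(I:C) knockout, 1.54, 3.23, 2.15 and 2.61 CPM in the saline knockout and at 2.84, 1.78, 2.31 and 2.84 CPM in FVB. All poly(I:C) libraries lay above all others. Its log2 fold change was 2.43 (SE 0.289, adjusted p = 0.000121 by edgeR) over the saline knockout and 2.40 (SE 0.290, adjusted p = 0.000103 by edgeR) over FVB. Herc1 and Herc2, its large relatives among the 37 genes, differed from the saline knockout by 0.04 and 0.12 (adjusted p = 0.890 and 0.435 by edgeR).

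Nuclear regulators and an RNA-associated protein gave the last 4 genes, with none called by edgeR, DESeq2 or limma-voom and 1 at an unadjusted p under 0.05 in each comparison (Spen for poly(I:C) over saline knockout, Prrc2a for saline knockout over FVB and Kmt2a for poly(I:C) knockout over FVB). Kmt2a, a histone H3 lysine methyltransferase, had the largest positive fold change of the 37 for poly(I:C) knockout over FVB. It was at 167, 211, 216 and 200 CPM in the poly(I:C) knockout, 188, 185, 164 and 166 CPM in the saline knockout and at 167, 155, 192 and 169 CPM in FVB. Poly(I:C) libraries 2 to 4 were above every other library, and library 1 was level with FVB, so the groups overlapped. The log2 difference from FVB was 0.22 (SE 0.0833, adjusted p = 0.134 by edgeR) and passed without poly(I:C) library 1 (0.0280) and without the low-count filter (0.0494). Without the 3 libraries high in Ttr it was 0.10 (adjusted p = 0.798 by edgeR), and the cause was not tested. Spen, a transcriptional corepressor, differed by 0.22 (SE 0.0848, adjusted p = 0.200 by edgeR) for poly(I:C) over saline knockout. Camta1, a calmodulin-binding transcription activator, and Prrc2a lay between −0.16 and 0.04 in every comparison.

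**Figure D3:**
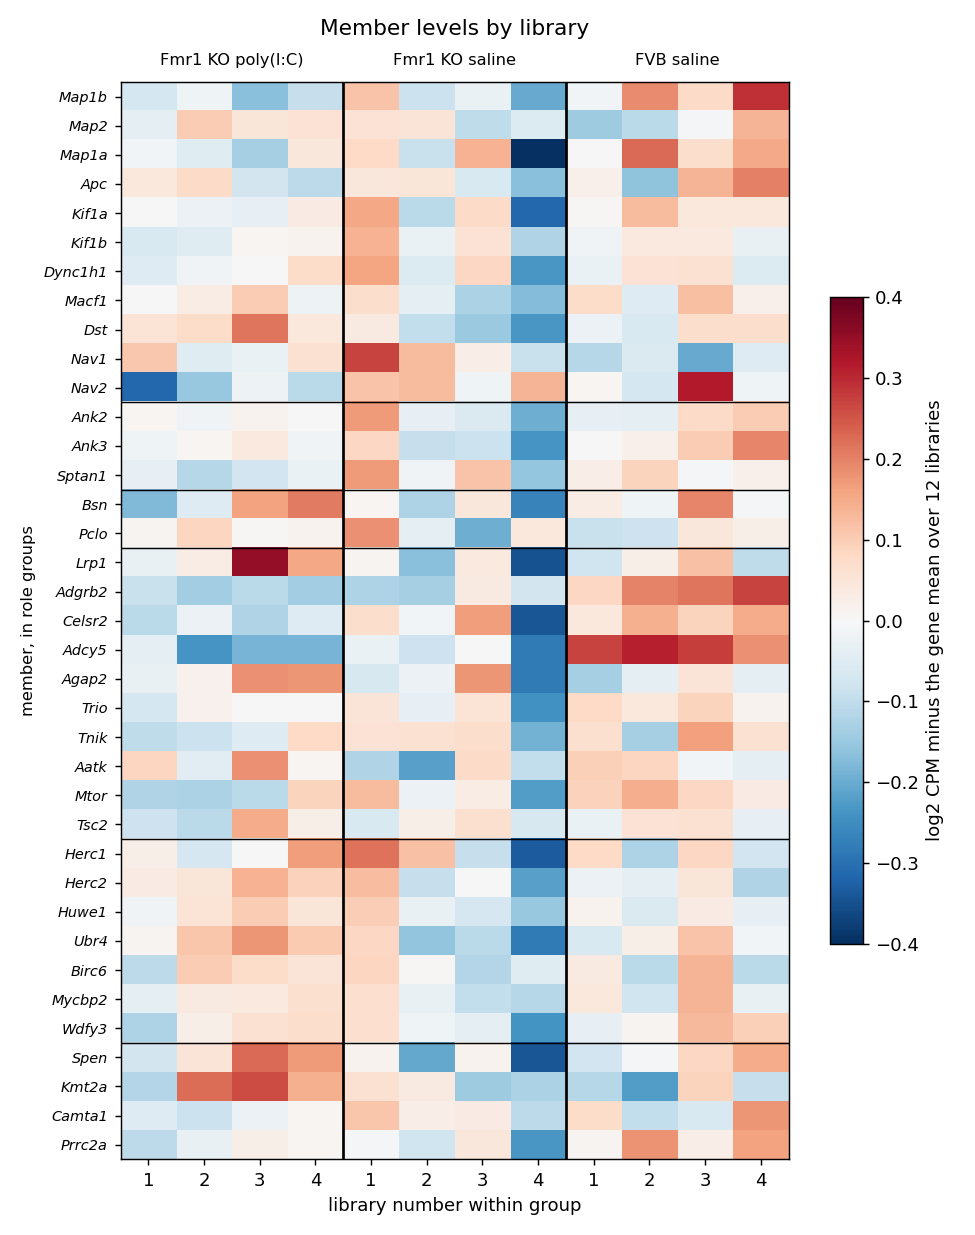
Log2 CPM of each of the 37 genes (rows, in role groups) in each of the 12 libraries (columns), as the difference from that gene's mean over all libraries, blue for lower and red for higher. Saline knockout 4 is blue down most of its column (35 of 37 genes below their own mean), and Adcy5 and Adgrb2 are red in all 4 FVB libraries and pale or blue in the 8 knockout libraries.

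The largest common departure of the 37 transcripts was that of 1 library. Averaged over the 37 genes, the difference of a library from each gene's own mean was 0.0041 ± 0.0400 in the poly(I:C) knockout, −0.04 ± 0.110 in the saline knockout and 0.04 ± 0.0364 in FVB on the log2 scale (SD, n = 4 each). Saline knockout 4 was at −0.19, with 35 genes below and 2 above their own mean, whereas saline knockout 1 was at 0.07 and FVB 3, the highest, at 0.08. The ratio of the highest to the lowest library ran from 1.19 for Mycbp2 to 1.63 for Lrp1, with a median of 1.32.

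Length moved with this in saline knockout 4. The 37 transcripts run from 5.94 kb (Agap2) to 41.2 kb (Dst) of exon, with a median of 16.2 kb against 3.77 kb over tested genes, and 35 of them fall in the longest quintile. In saline knockout 4 the median difference from the gene's own mean was 0.08 in the shortest quintile of tested genes and −0.06 in the longest, a gap of −0.14 (longest minus shortest). In the other 11 libraries the gap lay between −0.06 and 0.07, and it went with group. It was below zero in every poly(I:C) knockout library (−0.06 to −0.02) and above zero in every FVB library (0.0048 to 0.07). In saline knockout 1 to 3 it ran from −0.04 to 0.06. For saline knockout over FVB the median log2 fold change was 0.02, 0.02, 0.02, −0.0003 and −0.02 from the shortest to the longest quintile. For poly(I:C) knockout over FVB it was 0.04, 0.02, 0.0025, −0.02 and −0.02. Within the 37 genes the relation went the other way. Their Spearman rank correlation of exon length with the log2 fold change of saline knockout over FVB was 0.30, against −0.11 across 14754 tested coding genes. With an offset that removed the dependence on length within each library, the median of the 37 genes was −0.05 for saline knockout over FVB, with 21 below zero. It was −0.0016 for poly(I:C) over saline knockout, with 19 below zero, and −0.03 for poly(I:C) knockout over FVB, with 19 below zero. Adcy5 (7.18 kb) and Adgrb2 (6.49 kb) are among the shortest of the 37 transcripts and stayed called against FVB with the offset. What gave library 4 its gap, or set the groups apart in the gap, was not tested.

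**Figure D4:**
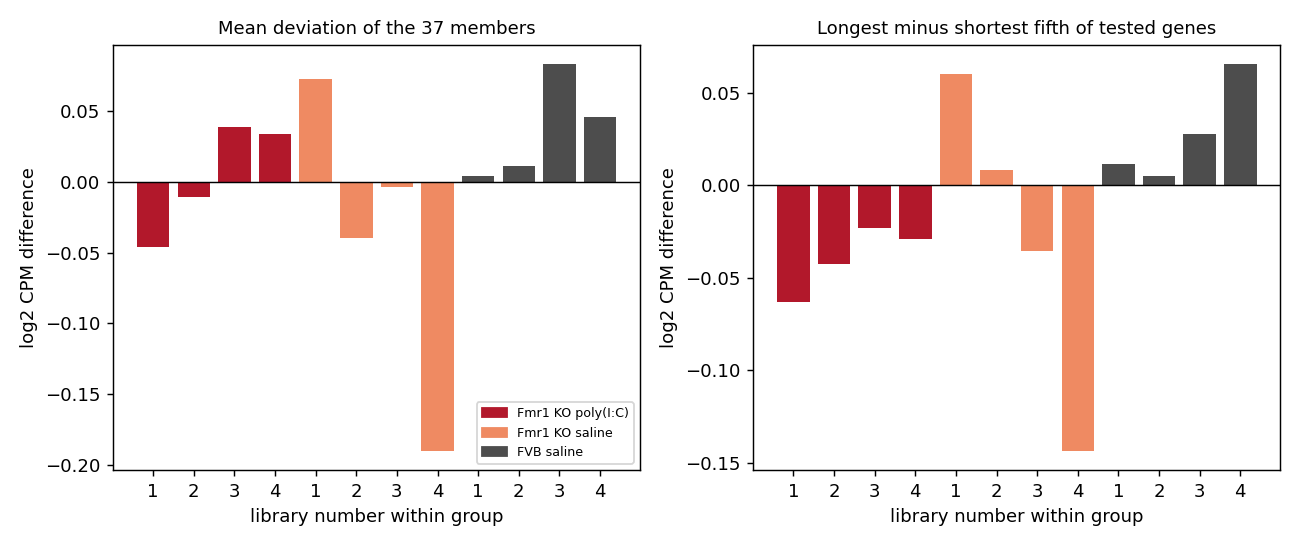
Mean difference of the 37 genes from their own means (left) and the difference between the longest and shortest length quintiles of tested genes (right), both in log2 CPM, for each library by group. Saline knockout 4 has the lowest bar in both panels, at −0.19 and −0.14.

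**Figure D5:**
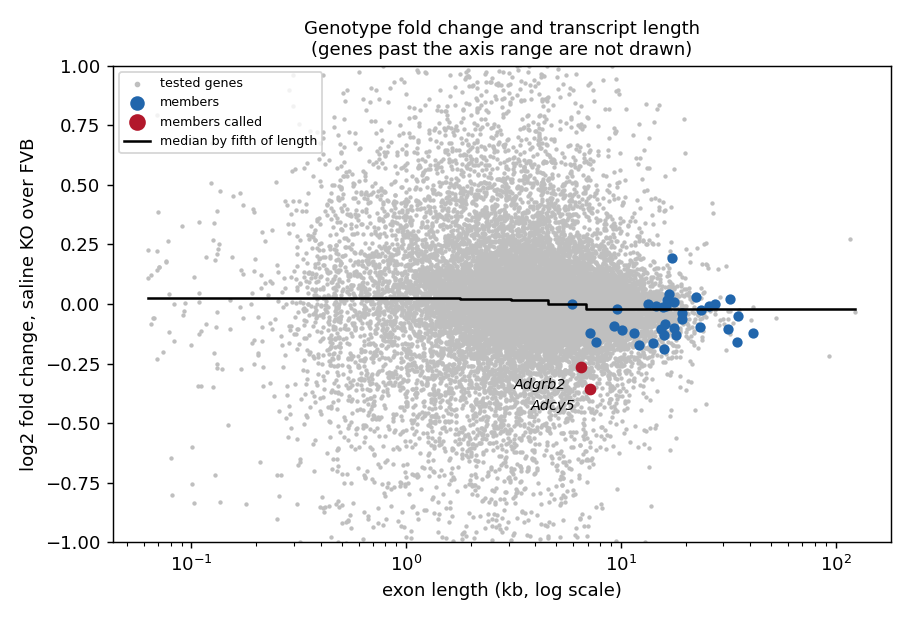
Log2 fold change of saline knockout over FVB (y axis) against exon length (x axis, log scale) for tested genes (grey), the 37 genes (blue, called ones in red) and the median by length quintile (line). Both called genes lie at the short end of the 37, and the quintile median goes down to −0.02 for the longest genes.

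The FMRP-bound transcripts of synapse, channel and autism genes were tested beside these. For saline knockout over FVB 1 of 36 was called (1.53% over all tested genes): Cacna1b, the N-type calcium channel, which fell (−0.26, SE 0.0643, adjusted p = 0.0466 by edgeR). DESeq2 called 5 of the 36 there and limma-voom 0, where they called 636 and 225 of the 19166 tested genes. By edgeR 0 were called without poly(I:C) knockout 1, 2 or 4, without saline knockout 2 or 4, without FVB 2, 3 or 4, without the 3 libraries high in Ttr and with the length offset. The count was also 0 with the replicate block, in a fit of those groups only, with log2 Ttr as a covariate and with 1 surrogate variable. At an unadjusted p under 0.05 stood 10 of the 36 (27.8%, against 12.0% of all tested genes). In that comparison 6 (16.7%) were above and 30 below zero, with a median of −0.11, where 50.9% of all tested genes were above zero. Below zero were 25, with a median of −0.09, without saline knockout 4, and 25, with a median of −0.07, with the length offset. For poly(I:C) over saline knockout 1 of 36 was called (2.87% over all tested genes), the synaptic adhesion gene Nlgn3, which fell (−0.31, SE 0.0750, adjusted p = 0.0282 by edgeR), and the median was 0.03. Nlgn3 was not called without poly(I:C) knockout 2 or 3, without saline knockout 1, 2 or 3, without the 3 libraries high in Ttr or in a fit of those groups only. In that comparison DESeq2 called 4 of the 36, 1 of them lower, and limma-voom called 1, where they called 986 and 572 of the 19166 tested genes. At an unadjusted p under 0.05 by edgeR stood 8 (22.2%, against 15.5% of all tested genes), 7 of them above and 1 below zero. Poly(I:C) knockout over FVB called 4 of 36, where 7.05% of all tested genes were called. All 4 were lower: Cacna1b (−0.31), the NMDA receptor subunits Grin2b (−0.50) and Grin2a (−0.29), and the GABA-B receptor subunit Gabbr1 (−0.23), with adjusted p from 0.00484 to 0.0495 by edgeR. The count was 0 without the 3 libraries high in Ttr, 1 without poly(I:C) knockout 3, and 2 without poly(I:C) knockout 2 or 4, without FVB 2 or 4 or with the length offset. It was also 2 with log2 Ttr as a covariate and with 1 surrogate variable. This longer list was itself named with results of these data known. Of 17 other tested genes of the mTOR pathway, poly(I:C) over saline knockout called 1 (2.87% over all tested genes). It was Akt1s1, an inhibitor within mTOR complex 1, which rose (0.48, SE 0.117, adjusted p = 0.0309 by edgeR). Saline knockout over FVB called 0 of the 17 (at an unadjusted p under 0.05 there were 4, and DESeq2 and limma-voom also called 0). Poly(I:C) knockout over FVB called 1 (7.05% over all tested genes), the cap-binding factor Eif4e, which fell (−0.24, SE 0.0656, adjusted p = 0.0341 by edgeR). Of FMRP's relatives and partners Fxr1, Fxr2, Cyfip1 and Nufip1, none was called in any comparison by edgeR, DESeq2 or limma-voom, and Nufip1 alone reached an unadjusted p under 0.05, for poly(I:C) over saline knockout and for poly(I:C) knockout over FVB.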

How the data were processed

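The authors deposited raw read counts per gene as 1 table of 57010 Ensembl genes by 12 libraries. Per the submitters' processing notes these counts came from Trim Galore, HISAT2 and featureCounts on GRCm39. Not given in the sources used here are versions, the strand setting, the annotation release and how multi-mapping reads were treated, which leaves overlapping and near-identical genes uncertain. Per the labels' protocols, RNA was extracted with TRIzol and libraries were made with a TruSeq RNA kit.

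Symbols, exon lengths and coding sequences were joined by Ensembl identifier from GENCODE M21 (GRCm38), which named 52081 genes. Genes were filtered with edgeR 4.0.16 (filterByExpr, minimum count 10, minimum total 15), leaving 19166, scaled by TMM and fitted with its robust quasi-likelihood method, 1 coefficient for each of the 3 groups, leaving 9 residual degrees of freedom. The common biological coefficient of variation was 0.152. Comparisons were contrasts of that fit, called at a Benjamini-Hochberg adjusted p under 0.05 over all tested genes. "Rose" and "fell" are used only of called genes. CPM used TMM-scaled totals of tested genes, and CPM per kb divided this by exon length. SE was taken as |log2 fold change| divided by the root of the F statistic. The 95% intervals used this SE and a t distribution on the 9 residual degrees of freedom, fewer than the test used. They are thus somewhat wider than the test implies and can include zero at an unadjusted p under 0.05. Celsr2 for poly(I:C) knockout over FVB had an unadjusted p of 0.0363 by edgeR and an upper bound of 0.0003. The fit was tested on simulated counts.

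Values in every library are printed for called genes, the 3 highest and 2 lowest per kb, and the largest positive and negative fold change of each comparison. Others are summarised by role, and exceptions are named as such. The 37 genes and the other lists were chosen with earlier results of these data known. Alternatives were DESeq2 1.42.0, limma-voom (limma 3.58.1), 1 surrogate variable (sva 3.50.0), RLE and upper quartile scaling, other filters, 2-group fits, the replicate block, no robust estimation, an adjusted p under 0.1, leaving out each library or the 3 libraries with Ttr above 1000 CPM, log2 Ttr as a covariate, and a length offset.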

Additional observations from a re-analysis of the deposited data

Results flagged for a closer look

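Of 111 sets of 4 libraries (each of the 37 genes in each group), 4 had a library whose gap to its nearest neighbour took up more of the group's range than Dixon's 95% limit allows, and chance gives about 1 in 20. Pclo was at 277 CPM in poly(I:C) knockout 2, above 262 to 264 CPM in the other libraries of that group. Mtor was at 118 CPM in poly(I:C) knockout 4, above 102 to 103 CPM in the others. Nav2 was at 52.1 CPM in saline knockout 3, below 57.2 to 58.0 CPM in the others. Tnik was at 132 CPM in saline knockout 4, below 156 to 158 CPM in the others, and that library was low for most of the 37 genes.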

How the results depend on the processing

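Of 26 alternatives, none turned the direction of a called gene. The count of the 37 genes called for poly(I:C) over saline knockout, 0, became 1 with DESeq2 (Dst) and 1 with the length offset (Nav2), an alternative chosen after seeing the data, and ranged from 0 to 1 when single libraries were left out (1 without saline knockout 1, Ubr4). For saline knockout over FVB the count, 2, fell to 1 in the fit of only those groups, without the 3 libraries high in Ttr and with 1 surrogate variable, Adgrb2 being lost each time, and ranged from 1 to 2 when single libraries were left out. For poly(I:C) knockout over FVB it fell to 1 without the 3 libraries high in Ttr and was 2 to 3 otherwise. Medians over the 37 genes moved by less than the spread between libraries: from −0.01 to 0.09, from −0.11 to −0.03 and from −0.04 to 0.0013 in the 3 comparisons. Counts over all genes moved more. The 550 calls for poly(I:C) over saline knockout became 986 with DESeq2, 215 without the 3 libraries high in Ttr, 917 at an adjusted p under 0.1 and 347 without poly(I:C) knockout 3. The 294 for saline knockout over FVB became 636 with DESeq2, 506 without a filter, 494 at an adjusted p under 0.1, 182 without saline knockout 2 and 156 to 194 without single FVB libraries. The 1352 for poly(I:C) knockout over FVB became 556 without the 3 libraries, 2123 at an adjusted p under 0.1, 869 with 1 surrogate variable, 791 without poly(I:C) knockout 3 and 900 without FVB 2. The cause was not tested. Correlations of same-numbered libraries over the most variable genes lay between −0.13 and 0.18. A weak shared effect need not show in these, so whether the numbers pair the samples was not settled. With the replicate block 0, 2 and 2 of the 37 genes and 563, 274 and 1322 of all genes were called. With 4 libraries a group, most differences of these genes under about 0.2 on the log2 scale had a 95% interval that included zero. The exceptions were Map1b (−0.19), Ank3 (−0.16), Prrc2a (−0.16) and Nav1 (0.19) for saline knockout over FVB, and these were not called.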
